A study of Homo sapiens with 18 samples.

Results

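The BCL2 family controls whether the outer membrane of mitochondria is breached, the committing step of the intrinsic route to apoptosis. Its anti-apoptotic proteins (BCL2, BCL-XL from BCL2L1, and MCL1) hold the pore-forming proteins BAX and BAK in check. The BH3-only proteins (PUMA from BBC3, NOXA from PMAIP1, BIM from BCL2L11, BID and BMF) relay stress by occupying the anti-apoptotic proteins or by activating the pore formers. Transcription of several of these genes is known to respond to p53, FOXO or E2F factors, the last of which are restrained by the RB1 protein. The 10 genes named here were chosen by name: 3 anti-apoptotic, 2 pore-forming and 5 BH3-only genes, out of 55765 gene symbols in the deposited table. Each had a row of its own, and all 10 reached the mean of 10 normalized counts over the libraries that was asked for before testing, as did 16154 symbols in all. PMAIP1 reached it only through its tazemetostat libraries.

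RNA was sequenced from 18 cultures of G401, a malignant rhabdoid tumour cell line, in 6 groups of 3 biological replicates. The control line, labelled WT, had been edited with CRISPR/Cas9 at AAVS1, a safe harbour site, and kept RB1. E1 and F2 are clones in which both RB1 alleles were deleted, and each is 1 clone, so that loss of RB1 and clonal variation cannot be told apart in a difference between either clone and WT. Each line was held for 11 days with 10 µM tazemetostat (TAZ), an inhibitor of EZH2, the methyltransferase of the Polycomb repressive complex that silences genes, or with the solvent DMSO alone.

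Recovered depth was 25709489 to 39314860 reads per library. RB1 transcript averaged 2694 ± 132 normalized counts in untreated WT, against 648 ± 138 for E1 and 839 ± 30.5 for F2 (SD, n = 3 in each group). With tazemetostat RB1 averaged 2474 ± 157 in WT, 977 ± 59.0 in E1 and 937.5 ± 6.66 in F2. It rose with the drug in E1 by a log2 change of 0.61 (limma adjusted p = 1.1e-04). SMARCB1, the gene lost in rhabdoid tumours, had 0 reads in all 18 libraries. The 3 libraries of E1 with DMSO differed from each other more than those of any other group, with a chi-square per degree of freedom of 29.8 to 61.8 between pairs against 2.36 to 21.6 elsewhere. Among 9 markers of blood, endothelial and epithelial cells, 8 had a row. PTPRC and CD3E, which mark blood cells, had at most 2 reads in any library. CDH5, an endothelial cadherin, went from 0 or 1 read in every DMSO library to 9 to 15 reads for WT, 4 to 9 for E1 and 25 to 29 for F2 with tazemetostat. VWF, the endothelial von Willebrand factor, had 0 to 10 reads with DMSO and 22 to 38 with tazemetostat. It was called in each line, with log2 changes of 3.82 for WT, 2.14 for E1 and 3.5 for F2. VWF could pass the filter on low values only by being higher with the drug. CD68, a macrophage marker, had 6 to 21 reads per library and was called with tazemetostat in E1 (1.06, limma adjusted p = 0.034) but not in WT (0.44) or F2 (0.24). CD68, too, reached the filter on low values only through its tazemetostat libraries. The summed level of the list was nearly all KRT18, a keratin that the line itself carries, and it ran from 16942.9 to 19157.6 in WT with DMSO and from 112556 to 117388.9 with tazemetostat. In E1 it ran from 26571.6 to 33176.4 and then from 66312.6 to 69510, and in F2 from 8360.7 to 9995.4 and then from 60273.7 to 67646.7. The part of these markers in the results was not tested. In bulk RNA, fewer cells with a transcript and less of it per cell cannot be told apart.

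Tazemetostat shifted BMF down in all 3 lines and raised BCL2L1 by a log2 change of at least 1 in WT and F2. PMAIP1 went from the floor to a low level in WT and F2, and to only 3 to 8 reads in E1. A gene was called when its Benjamini-Hochberg adjusted p in limma lay below 0.05 and the size of its log2 change reached 1. By that rule 3 of the 10 genes were called in WT, where 21.3% of all tested genes were. In E1 2 of 10 were called against 15.1% of all genes, and in F2 3 of 10 against 17.0%. PMAIP1 is in each of these counts, although it could pass the filter on low values only by being higher with the drug. Without a limit on the fold, the adjusted p was under 0.05 for 7 of 10 genes of WT, 6 of E1 and 7 of F2, beside 64.2%, 46.8% and 52.2% of all tested genes. The median log2 change of the 10 genes was 0.31 for WT, 0.03 for E1 and 0.11 for F2, and that of all tested genes was 0.03, 0.02 and 0.02. A change is said to have passed when its adjusted p was under 0.05, and to have been called when it met the fold limit too.

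**Figure D1:**
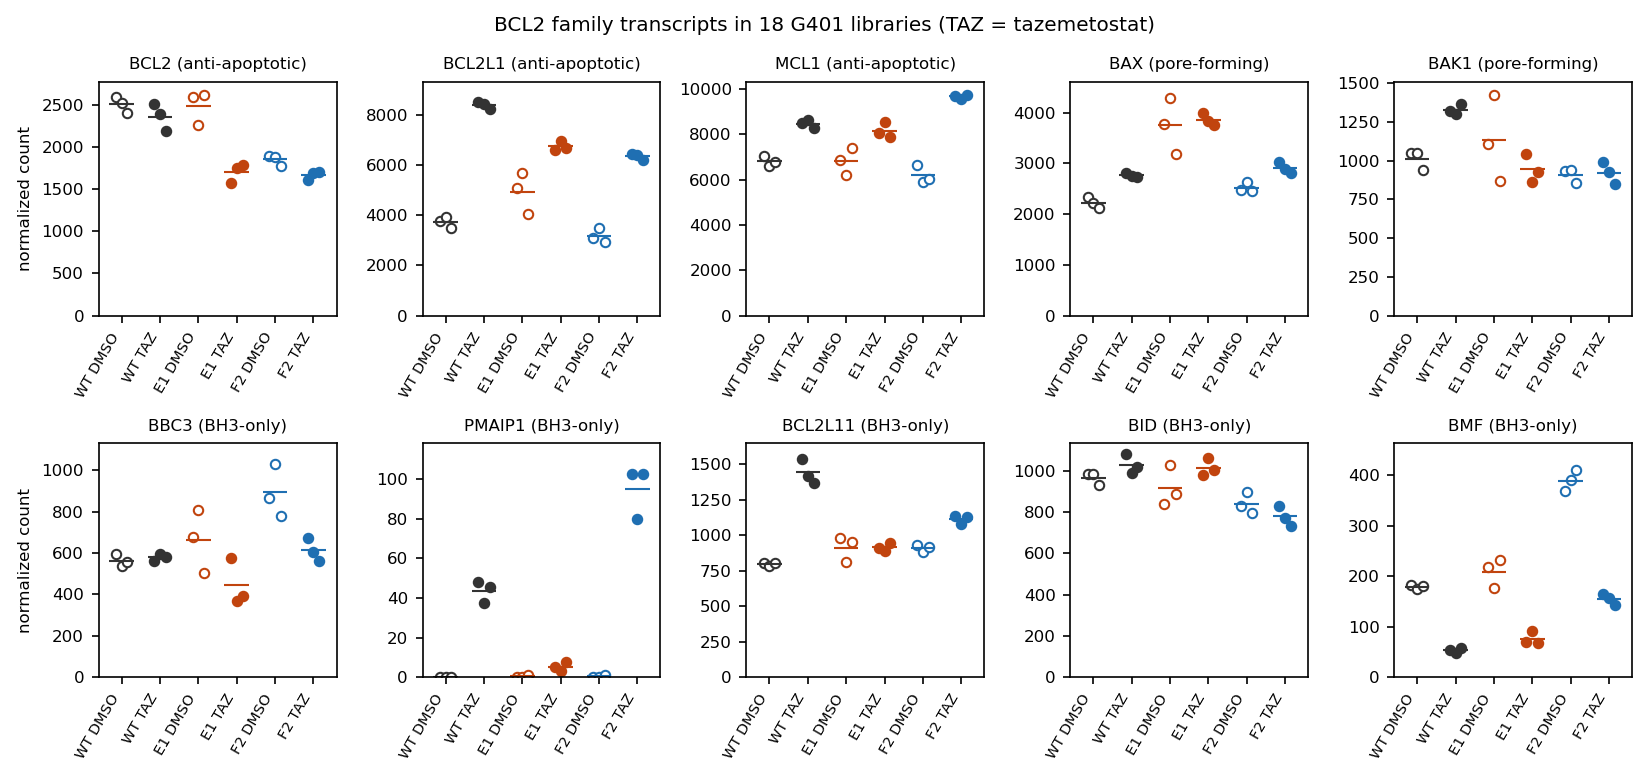
Normalized counts (y axes, from 0) of the 10 BCL2 family genes in each of 18 libraries; open circles are DMSO, filled circles tazemetostat (TAZ), horizontal lines the mean of 3 libraries, and colours the lines WT, E1 and F2. BMF sits lower with tazemetostat in each line, PMAIP1 is at 0 or 1 read in every DMSO library, and BCL2L1 rises most in WT and F2.

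The anti-apoptotic genes did not move as a group. BCL2, which encodes the founding survival protein of the family, had 2600.3, 2527 and 2405 normalized counts in the 3 WT libraries with DMSO and 2515, 2389 and 2187 with tazemetostat. E1 had 2599, 2262 and 2623 with DMSO and 1579, 1754 and 1787 with tazemetostat. F2 had 1896, 1889 and 1781 with DMSO and 1605, 1697 and 1707 with tazemetostat. Thus every treated E1 library lay below every untreated one, the WT groups overlapped, and F2 started lower and separated only narrowly. The log2 change with tazemetostat was -0.55 ± 0.07 (SE, adjusted p = 3.1e-06) in E1. It was -0.09 ± 0.07 (SE, adjusted p = 0.28) in WT and -0.15 ± 0.07 (SE, adjusted p = 0.08) in F2. Whether these smaller values passed depended on the processing: scaled to the same total, WT gave -0.24 (limma adjusted p = 0.002) and F2 gave -0.18 (0.018), and F2 also passed with TMM factors (0.046) and with only its own groups in the fit (0.034). The E1 fall went beyond the change in WT, with a response difference (one line's log2 change minus another's) of -0.46 ± 0.10 (SE, adjusted p = 0.0017), and beyond that in F2, with -0.39 ± 0.10 (SE, adjusted p = 0.011). Between F2 and WT the responses differed by -0.06, with a 95% interval of -0.27 to 0.15. With DMSO, F2 already had less BCL2 than WT, a log2 difference of -0.44 ± 0.07 (SE, adjusted p = 2.3e-04).

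BCL2L1, whose main product BCL-XL is a survival protein, rose with tazemetostat in every line. WT libraries had 3749, 3926 and 3498 normalized counts with DMSO and 8485, 8433 and 8204 with tazemetostat, a 2.25-fold rise of the mean. E1 had 5095, 5685 and 4028 and then 6591, 6937 and 6664, a 1.36-fold rise. F2 had 3087, 3471 and 2930.5 and then 6438, 6385 and 6175, a 2.0-fold rise. The treated and untreated libraries did not overlap in any line, and the untreated E1 libraries were both the highest and the most scattered, with a coefficient of variation of 17.0%. The log2 changes were 1.17 ± 0.09 (SE, adjusted p = 2.1e-09) for WT, 0.46 ± 0.09 (SE, adjusted p = 4.0e-04) for E1 and 1.00 ± 0.09 (SE, adjusted p = 2.3e-08) for F2. Leaving out any 1 library moved the E1 value to between 0.32 and 0.57. The F2 value sits on the fold limit, and in 7 of the alternatives it fell just under it, at 0.95 to 1.00, with its adjusted p still under 0.05. The rise in E1 was smaller than in WT, with a response difference of -0.71 ± 0.13 (SE, adjusted p = 3.6e-04), and smaller than in F2, with -0.54 ± 0.13 (SE, adjusted p = 0.0074). F2 and WT differed in response by -0.17, with a 95% interval of -0.44 to 0.11. The epithelial markers did not share one order of lines. KRT18 rose least in E1, with log2 changes of 2.68 for WT, 1.16 for E1 and 2.81 for F2. CDH1, the epithelial cadherin, rose most in E1, with log2 changes of 0.45 for WT, 3.17 for E1 and 0.85 for F2. EPCAM, an epithelial adhesion protein, had log2 changes of -0.29 for WT, -1.37 for E1 and -1.14 for F2. It reached the filter on low values only through its DMSO libraries, and treated E1 had 4, 5 and 1 reads. The part of these epithelial markers in the result was not tested.

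With tazemetostat, BCL2L1 stood lower in both clones than in WT, with log2 differences of -0.32 ± 0.09 (SE, adjusted p = 0.0081) for E1 and -0.40 ± 0.09 (SE, adjusted p = 0.0012) for F2. With DMSO, E1 lay above WT by 0.39 ± 0.09 (SE, adjusted p = 0.004), a difference that did not pass when only those groups were fitted (adjusted p = 0.15). Part of the BCL2L1 signal cannot be assigned. In GENCODE release 29, 42.8% of its exonic bases overlap ABALON on the opposite strand, and whether counting used the strand was not given in the sources used here. The counts are also per gene, so the long and short splice forms, which have opposite roles, were not resolved.

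The sequences upstream of the 3 genes that were called with tazemetostat are shown because Polycomb complexes are known for occupying CpG-rich promoters. They were taken from RefSeq (GRCh38.p14), not from these libraries, and run 5′ to 3′ on the gene's strand over the 250 bases before its most upstream listed start. Capitals mark each CG dinucleotide.
BCL2L1 (chr20:31723964-31724213, minus strand): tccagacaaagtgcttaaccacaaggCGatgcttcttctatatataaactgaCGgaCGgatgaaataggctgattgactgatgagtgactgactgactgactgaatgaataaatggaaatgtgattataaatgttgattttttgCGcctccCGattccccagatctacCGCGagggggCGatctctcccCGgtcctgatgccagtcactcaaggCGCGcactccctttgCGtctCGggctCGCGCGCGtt
PMAIP1 (chr18:59899746-59899995, plus strand): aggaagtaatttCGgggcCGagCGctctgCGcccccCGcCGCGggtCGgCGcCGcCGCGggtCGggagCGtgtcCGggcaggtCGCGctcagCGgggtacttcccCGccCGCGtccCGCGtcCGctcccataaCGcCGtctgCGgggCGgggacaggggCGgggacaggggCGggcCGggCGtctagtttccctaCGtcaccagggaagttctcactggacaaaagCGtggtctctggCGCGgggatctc
BMF (chr15:40108880-40109129, minus strand): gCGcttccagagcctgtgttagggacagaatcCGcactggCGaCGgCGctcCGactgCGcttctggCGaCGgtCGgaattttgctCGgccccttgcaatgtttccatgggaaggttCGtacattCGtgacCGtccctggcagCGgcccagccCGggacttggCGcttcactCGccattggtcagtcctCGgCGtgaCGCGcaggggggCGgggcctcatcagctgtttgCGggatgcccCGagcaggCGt
The printed BCL2L1 stretch held 17 CG dinucleotides, that of PMAIP1 36 and that of BMF 26. Over 300-base windows that run to 50 bases past the start, PMAIP1 had 42, more than 94.2% of 35116 RefSeq windows. BMF had 31, more than 79.3%, and BCL2L1 had 20, more than 58.8%, around a median of 14. BMF and BCL2L1 each have a further listed start, with 1 and 16 CG dinucleotides in its window. The windows at the printed starts thus held more CG than the median for all 3 genes, the 2 that rose and the 1 that fell.

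In these windows the letters GGGCGG, a core SP1 sequence, occurred 4 times for PMAIP1, 2 times for BMF and 0 times for BCL2L1, counting both strands, and 45.0% of all windows held them. Letters of E2F sites (TTTCCCGC, TTTGGCGC, TTTCGCGC or TTTGCCGC, both strands) were in 0 of the 15 windows of the 9 genes with an entry, and in 3.3% of all windows. With 0 E2F matches, no match of the 2 motifs overlapped. A match or its absence describes only these letters in this window.

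MCL1, a short-lived survival protein that NOXA binds and helps to remove, rose with tazemetostat in all 3 lines and most in F2. WT libraries had 7029.6, 6607 and 6760.5 normalized counts with DMSO and 8493, 8631 and 8279 with tazemetostat. E1 had 6845, 6182 and 7380.1 and then 8072, 8533 and 7871. F2 had 6635, 5879 and 6024 and then 9699, 9548 and 9745. Treated and untreated libraries were apart in each line, and treated F2 was the highest group. The log2 changes were 0.32 ± 0.06 (SE, adjusted p = 2.9e-04) for WT, 0.27 ± 0.06 (SE, adjusted p = 0.0022) for E1 and 0.65 ± 0.06 (SE, adjusted p = 6.9e-08) for F2, none of which reached the fold limit. The rise in F2 exceeded that in WT by 0.33 ± 0.09 (SE, adjusted p = 0.011), and the E1 rise minus the F2 rise was -0.38 ± 0.09 (SE, adjusted p = 0.0069). E1 and WT differed in response by -0.05, with a 95% interval of -0.24 to 0.14. The E1 change did not pass when only the E1 groups were fitted (adjusted p = 0.056).

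Of the pore-forming genes, BAX separated clone E1 from the other lines more than it separated treated from untreated cells. BAX is also a known p53 target. WT had 2330.4, 2221 and 2128 normalized counts with DMSO and 2803, 2759 and 2724 with tazemetostat. E1 had 3778, 4287 and 3175 with DMSO and 3992, 3825 and 3758 with tazemetostat. F2 had 2464, 2628 and 2457 with DMSO and 3033, 2878 and 2810.1 with tazemetostat. Every E1 library, treated or not, exceeded every library of the other lines. With DMSO, E1 stood 1.68-fold above WT, a log2 difference of 0.74 ± 0.08 (SE, adjusted p = 1.2e-06) that ran from 0.64 to 0.85 with 1 library left out, and above F2 by 0.56 ± 0.08 (SE, adjusted p = 1.9e-05). With tazemetostat the E1 difference from WT was 0.48 ± 0.08 (SE, adjusted p = 5.8e-05). F2 and WT with DMSO differed by 0.18 ± 0.08 (SE, adjusted p = 0.13). Tazemetostat raised BAX in WT by 0.31 ± 0.08 (SE, adjusted p = 0.0021), which did not pass when every library was scaled to the same total (adjusted p = 0.08). In F2 the change was 0.21 ± 0.08 (SE, adjusted p = 0.035), and it did not pass in 8 of 16 alternatives. In E1 it was 0.05 ± 0.08 (SE, adjusted p = 0.62).

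BAK1, which encodes the other pore former, rose with tazemetostat in WT. WT libraries had 1052, 1051 and 941 normalized counts with DMSO and 1320.5, 1301 and 1369 with tazemetostat. E1 had 1108, 1426 and 867 and then 1047, 863 and 928. F2 had 936, 938 and 857 and then 990.3, 924 and 851. The WT groups were apart, whereas those of each clone overlapped and the untreated E1 libraries spread with a coefficient of variation of 24.7%. The log2 change was 0.39 ± 0.12 (SE, adjusted p = 0.011) in WT, which did not pass at a common total (adjusted p = 0.1). It was -0.24 ± 0.12 (SE, adjusted p = 0.13) in E1 and 0.02 ± 0.12 (SE, adjusted p = 0.93) in F2. The E1 response was below that of WT, with a difference of -0.63 ± 0.18 (SE, adjusted p = 0.0099). For F2 the difference was -0.38 ± 0.18 (SE, adjusted p = 0.13), with a 95% interval of -0.75 to -0.00. With tazemetostat both clones had less BAK1 than WT, with log2 differences of -0.50 ± 0.12 (SE, adjusted p = 0.0029) for E1 and -0.53 ± 0.12 (SE, adjusted p = 0.0016) for F2. In GENCODE 4.1% of BAK1 exonic bases overlap GGNBP1 on the opposite strand, itself at 0 to 4.71 normalized counts. The pseudogene BAK1P1 is a near copy, and how many BAK1 reads are uncertain for that reason was not measured.

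The BH3-only genes moved in different directions. PMAIP1, whose product NOXA neutralizes MCL1, was at the floor in all 9 DMSO libraries, with 0, 0 and 0 reads in WT, 0, 0 and 1 in E1, and 0, 0 and 1 in F2. With tazemetostat it had 49, 40 and 37 reads in WT, 5, 3 and 8 in E1, and 106, 79 and 111 in F2. A count of 0 allows up to 3 reads. Against 3 reads per library, taken at the size factor that makes them worth most, the treated mean was at least 15.4-fold higher for WT, at least 1.8-fold for E1 and at least 26.1-fold for F2. These floors cover counting error only. All 3 changes were called (limma adjusted p of 1.8e-10 for WT, 4.5e-05 for E1 and 3.2e-11 for F2). Their fitted log2 sizes of 5.48, 2.25 and 6.19 depend on the pseudocount and are no bounds. With a pseudocount of 8 the E1 value was 0.66, under the fold limit.

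The treated lines did not reach the same PMAIP1 level. Means were 43.8 ± 5.66 normalized counts for WT, 5.25 ± 2.32 for E1 and 95.1 ± 13.3 for F2 (SD, n = 3), with no overlap between lines. Only the treated WT and F2 libraries, where PMAIP1 is high, brought it past the filter on low values. E1 lay 8.33-fold below WT, at -2.90 ± 0.36 (SE, adjusted p = 2.8e-06). F2 lay 2.17-fold above WT, at 1.10 ± 0.36 (SE, adjusted p = 0.017), which did not pass with a pseudocount of 0.5 (adjusted p = 0.066), without a filter on low values (0.062), without WT TAZ replicate 2 (0.058) or without F2 TAZ replicate 3 (0.051). The fitted response in E1 was below that in WT, with a difference of -3.23 ± 0.51 (SE, adjusted p = 9.1e-05), and below that in F2, with -3.95 ± 0.51 (SE, adjusted p = 2.5e-05). Both kept their direction on the recovered reads but did not pass, with log2 differences of -4.84 and -3.99 in edgeR (adjusted p of 0.093 and 0.28) and of -4.05 and -3.97 in DESeq2 (0.058 and 0.12). Over the same lines, CDH5 had its fewest treated reads in E1 and its most in F2, and its part in the result was not tested.

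BCL2L11, whose product BIM engages all the anti-apoptotic proteins and is a known FOXO target, rose 1.81-fold in WT. WT libraries had 804, 783 and 802 normalized counts with DMSO and 1535, 1419 and 1368 with tazemetostat. E1 had 976, 809.9 and 948 and then 907, 891 and 943. F2 had 931, 879 and 917 and then 1137, 1078 and 1128. Treated WT libraries were above all others, treated F2 libraries were next, and the E1 groups overlapped. The log2 change was 0.85 ± 0.07 (SE, adjusted p = 4.1e-09) in WT and 0.29 ± 0.07 (SE, adjusted p = 0.0017) in F2, both under the fold limit. In E1 it was 0.01, with a 95% interval of -0.14 to 0.16. Both clones responded less than WT, with a response difference of -0.85 ± 0.10 (SE, adjusted p = 3.4e-06) for E1 and -0.56 ± 0.10 (SE, adjusted p = 3.8e-04) for F2. The clones against each other did not pass, at -0.29 ± 0.10 (SE, adjusted p = 0.064). In GENCODE 11.9% of BCL2L11 exonic bases overlap MIR4435-2HG on the opposite strand.

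**Figure D2:**
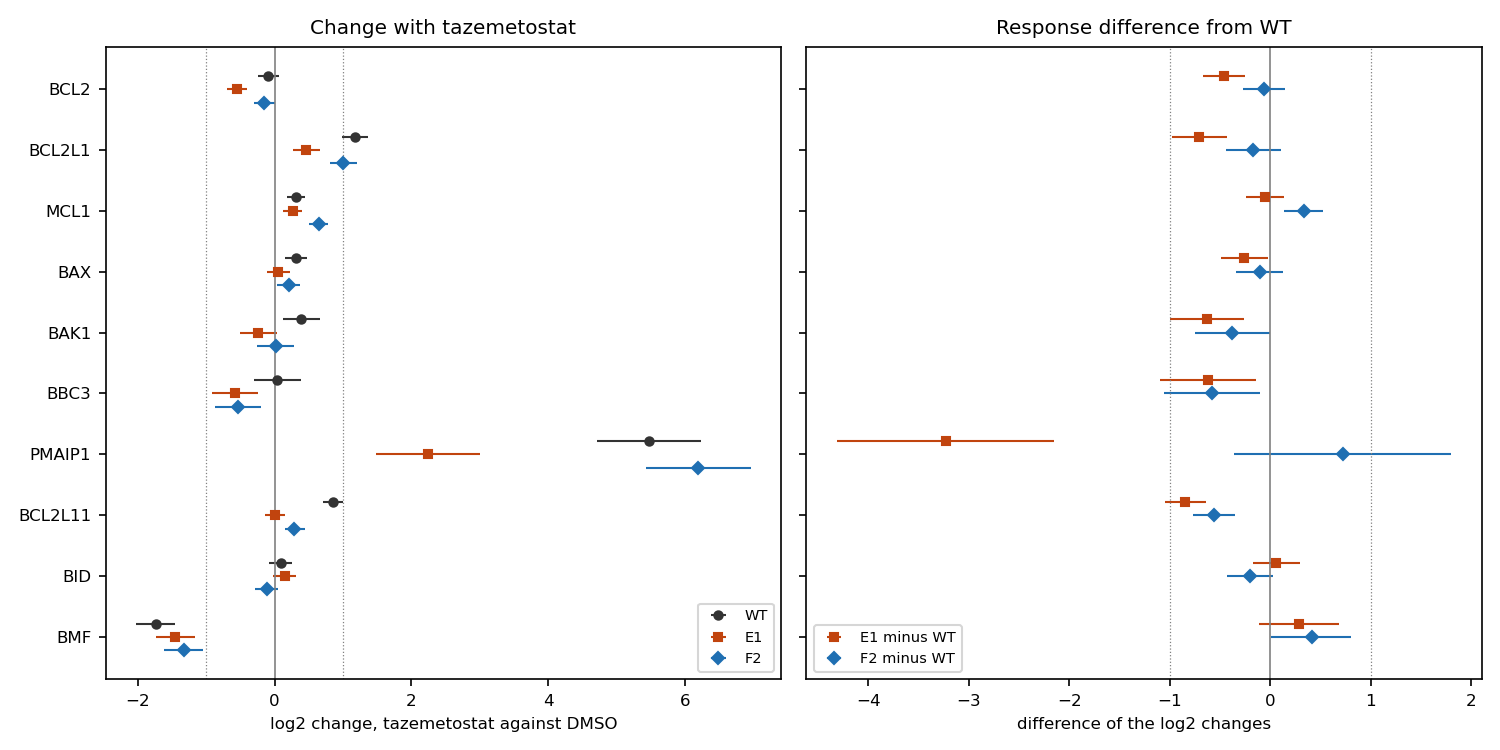
Left, log2 change with tazemetostat against DMSO for each gene in WT, E1 and F2; right, that change in a clone minus that in WT; points are limma estimates, bars 95% intervals, and dotted lines the fold limit of 1. BCL2L11 and BCL2L1 lie left of 0 for E1 in the right panel (-0.85 and -0.71); the PMAIP1 points depend on the pseudocount.

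BMF, which encodes a BH3-only protein tied to the cytoskeleton, fell with tazemetostat in each line. WT libraries had 182, 175 and 181 normalized counts with DMSO and 53.2, 48.6 and 57.9 with tazemetostat, 3.37-fold lower. E1 had 218, 177 and 233 and then 69.2, 90.9 and 67.8, 2.75-fold lower. F2 had 369, 390.0 and 410.1 and then 165, 156 and 142, 2.52-fold lower. No treated library reached an untreated one of its own line, and treated F2, from a higher start, lay closer to untreated WT than to treated WT. The log2 changes were -1.74 ± 0.13 (SE, adjusted p = 1.4e-09), -1.45 ± 0.13 (SE, adjusted p = 2.7e-08) and -1.33 ± 0.13 (SE, adjusted p = 8.1e-08) in WT, E1 and F2. Responses of the clones were above that of WT by 0.28 (95% interval -0.11 to 0.68) in E1 and 0.41 (0.01 to 0.80) in F2, with adjusted p of 0.25 and 0.12. With DMSO, F2 had 2.17-fold more BMF than WT, at 1.11 ± 0.13 (SE, adjusted p = 8.1e-06). With tazemetostat it had 2.9-fold more, at 1.52 ± 0.13 (SE, adjusted p = 2.8e-08). E1 exceeded treated WT by 0.50 ± 0.13 (SE, adjusted p = 0.0045). In GENCODE 9.4% of BMF exonic bases overlap BMF-AS1 on the opposite strand.

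BBC3, whose product PUMA is a potent p53-induced BH3-only protein, fell in the clones, and its change in WT did not pass. WT had 597, 536 and 558 normalized counts with DMSO and 564, 594 and 581 with tazemetostat. E1 had 677, 807 and 505 and then 575, 368 and 390.1, and these overlapped. F2 had 866, 1033 and 782 and then 671, 608 and 562, and these did not. The log2 change was -0.58 ± 0.16 (SE, adjusted p = 0.0064) in E1, which did not pass when only the E1 groups were fitted (adjusted p = 0.063). In F2 it was -0.54 ± 0.16 (SE, adjusted p = 0.0094), which did not pass without F2 DMSO replicate 2 (adjusted p = 0.055). In WT it was 0.04 ± 0.16 (SE, adjusted p = 0.84), with a 95% interval of -0.30 to 0.38. The response difference from WT was -0.62 ± 0.23 (SE, adjusted p = 0.042) in E1, lost in 13 of 22 alternatives, and -0.58 ± 0.23 (SE, adjusted p = 0.071) in F2, which did not pass. With DMSO, F2 had 1.58-fold more BBC3 than WT, at 0.65 ± 0.16 (SE, adjusted p = 0.0075).

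BID, which links death receptors to mitochondria once cleaved, showed little movement. Its means were 966 ± 29.8 and 1028 ± 48.8 in WT without and with tazemetostat, 918 ± 96.6 and 1015 ± 43.7 in E1, and 841 ± 52.5 and 779 ± 49.6 in F2 (normalized counts, SD, n = 3). Of the 11 comparisons only that of F2 with WT under tazemetostat passed, at -0.40 ± 0.08 (SE, adjusted p = 3.2e-04).

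Counts of these genes between lines were as follows. With DMSO, 0 of 10 were called between E1 and WT in limma, where 5.04% of all tested genes were. The calls in edgeR and DESeq2 were also 0, while 3 of 10 had an unadjusted p under 0.05, beside 33.9% of all genes, and 2 (BAX and BCL2L1) passed, beside 23.2%. F2 against WT with DMSO gave 1 call, BMF, against 2.98%, and 3 genes passed against 20.2%. E1 against F2 with DMSO gave 0 calls in limma, edgeR and DESeq2 against 7.56% of all genes in limma, with an unadjusted p under 0.05 for 7 against 44.9% of all genes, and 5 passing against 37.1%. With tazemetostat, E1 against WT gave 1 call, PMAIP1, against 11.3%, and 8 genes passed against 51.8%. F2 against WT gave 2 calls, BMF and PMAIP1, against 12.3%, and 8 genes passed against 53.1%. PMAIP1 is in the counts of both treated comparisons, although it reached the filter on low values only through treated WT and F2 libraries.

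For the response differences, 1 of 10 genes, PMAIP1, was called between E1 and WT, against 10.0% of all tested genes. Without the fold limit 6 passed (BCL2, BCL2L1, BAK1, BBC3, PMAIP1 and BCL2L11), all lower in E1, beside 35.4% of all genes in either direction and 18.2% lower. Between F2 and WT 0 were called in limma, edgeR and DESeq2, against 7.48% in limma. There the unadjusted p was under 0.05 for 5 against 37.6% of all genes, and 2 passed (MCL1 higher, BCL2L11 lower) against 26.9%. Between E1 and F2 1 was called, PMAIP1, against 5.81%, and 4 passed (BCL2, BCL2L1, MCL1 and PMAIP1, all lower in E1) against 14.8% in either direction and 8.60% lower. PMAIP1 is in the counts of E1 against WT and against F2, although only treated WT and F2 libraries, where it is high, brought it past the filter. The median response difference of the 10 genes between E1 and WT was -0.54, where that of all tested genes was 0.01. It was -0.13 between F2 and WT (all tested genes 0.01) and -0.27 between E1 and F2 (all tested genes 0.0). These comparisons share control libraries and are not independent of each other.

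Levels can be compared between genes only per length. Per kilobase of annotated exons, WT with DMSO ran from MCL1 at 1664 and BAX at 1577, whose library ranges overlapped, through BCL2L1 at 1303, BAK1 at 459, BID at 344, BBC3 at 269.5, BCL2 at 214 and BCL2L11 at 131 to BMF at 36.5 and PMAIP1 at 0. All neighbours other than MCL1 and BAX were apart in their library ranges. With tazemetostat BCL2L1 came first in WT at 2929, above MCL1 at 2073 and BAX at 1956, and PMAIP1 at 20.9 stood above BMF at 10.8. In E1 BAX led both groups, at 2654 with DMSO and 2733 with tazemetostat, followed by BCL2L1 at 1727 and 2354. The ranges of BCL2L1 and MCL1 overlapped in untreated E1. In F2 BAX led with DMSO at 1782, and with tazemetostat MCL1 led at 2366, ahead of BCL2L1 at 2215 and BAX at 2059. BCL2 was the lowest of the 3 anti-apoptotic genes in all 6 groups, from 142 to 214 per kilobase. These lengths are unions over all annotated transcripts, and with the longest transcript 8 of 10 genes kept their place in untreated WT.

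**Figure D3:**
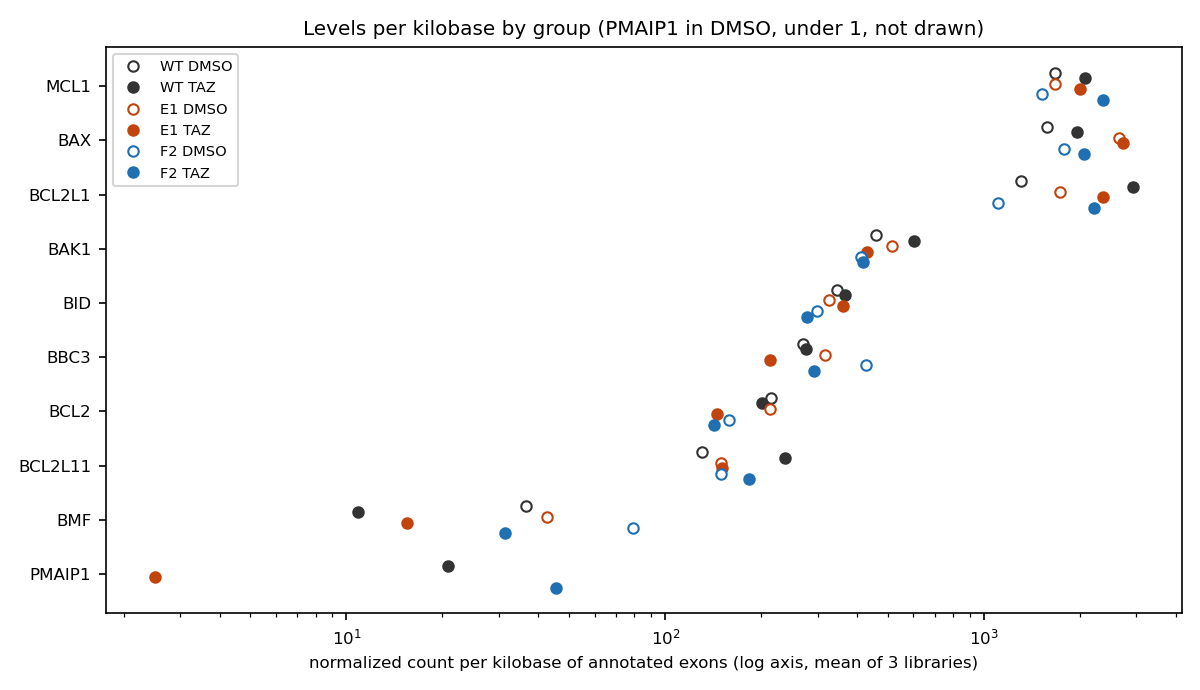
Mean normalized count per kilobase of annotated exons (log axis) of the 10 genes, ordered by WT with DMSO; open circles are DMSO and filled circles tazemetostat, coloured by line, and PMAIP1 with DMSO is not drawn. MCL1, BAX and BCL2L1 lie above 1000 in all 6 groups, and BAK1 is the next at 417 to 601 except in F2 with DMSO. There the BBC3 mean of 427 lies above the BAK1 mean of 412, with overlapping library ranges.

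The other apoptosis genes were read from lists. Of all tested genes, 21.3% were called with tazemetostat in either direction in WT, 15.1% in E1 and 17.0% in F2. By adjusted p alone these shares were 64.2%, 46.8% and 52.2%. Of 7 further BCL2 family genes (BCL2L2, BCL2A1, BCL2L10, BOK, BAD, BIK and HRK), BCL2A1 and BCL2L10 were under the filter, and 0 of the 5 tested were called with tazemetostat in any line. By adjusted p alone 1 passed in WT (higher), 3 in E1 (2 higher, 1 lower) and 2 in F2 (1 higher, 1 lower). Of 16 genes of caspase activation and its inhibition, 1 was called higher and 1 lower in WT, 1 and 1 in E1, and 1 and 0 in F2. BIRC3, which encodes an inhibitor of apoptosis protein, was the one higher in each line, with log2 changes of 2.73, 2.91 and 2.27 in WT, E1 and F2. With DMSO it averaged 4.92, 6.24 and 7.70 normalized counts in these lines. BIRC3 could thus pass the filter on low values only by being higher with the drug. BIRC5, which encodes survivin and is tied to cell division, fell by 1.53 on the log2 scale in WT, and by 0.33 in E1 and 0.26 in F2. ENDOG, a mitochondrial nuclease, fell by 1.22 in E1, with -0.51 in F2 and -0.06 in WT.

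Of 10 death receptor genes 9 were tested, and the largest change was that of FAS, the receptor that starts the extrinsic route. It had at most 2 reads in untreated WT and F2 libraries and 4, 14 and 9 in untreated E1. With tazemetostat its mean was at least 207-fold higher for WT and at least 218-fold higher for F2, and 197-fold higher for E1. TNFRSF1A, a TNF receptor, was called in F2 (1.25) and not in WT (0.89) or E1 (0.30), and its adaptor TRADD in WT (1.11) and not in E1 (0.61) or F2 (0.54), although all of these passed. CASP10, a caspase recruited by death receptors, had log2 changes of -1.08 in E1, 0.10 in WT and 0.40 in F2, so it was lower in E1 only. CASP10 reached the filter on low values only through its E1 libraries. In all, 2 of the 9 were called higher and 0 lower in WT, 1 and 1 in E1, and 2 and 0 in F2. Of all tested genes, 21.3%, 15.1% and 17.0% were called in either direction in these lines. FAS is in each of these counts, although it could pass the filter on low values only by being higher with the drug.

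Among 12 transcription factors known to act on BCL2 family genes, 2 were called higher in each line and 1 lower in WT. Beside these counts stand 21.3% of all tested genes called in either direction in WT, 15.1% in E1 and 17.0% in F2. JUN, an AP-1 factor, rose by log2 3.19 for WT, 1.92 for E1 and 1.96 for F2, and FOXO1, which can act on BCL2L11, by 1.85, 3.34 and 2.90. TP73, a p53 relative, fell by 1.00 in WT, with 0.09 in E1 and 0.37 in F2.

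**Figure D4:**
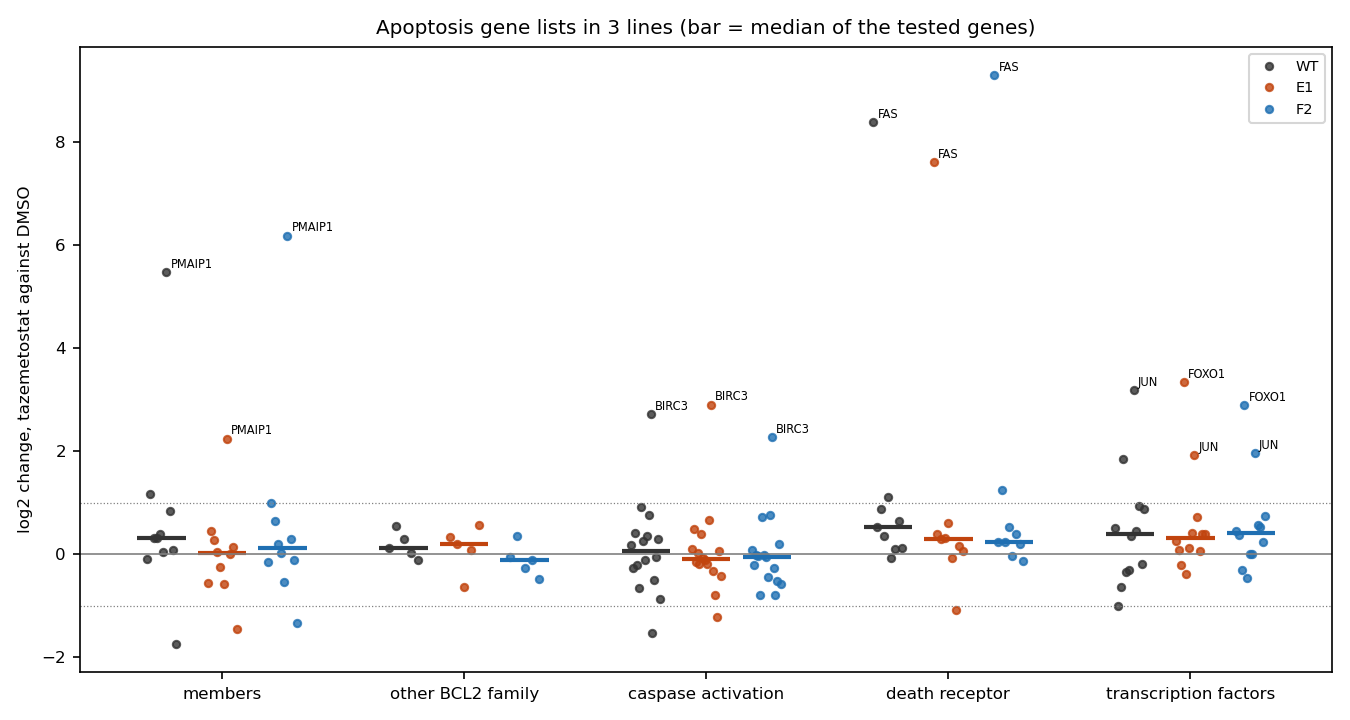
Log2 change with tazemetostat against DMSO (y axis) of each tested gene in 5 lists, in WT, E1 and F2; horizontal bars are medians, dotted lines the fold limit of 1, and called genes past 1.9 in size are named. FAS stands highest in each line, with PMAIP1 next in WT and F2 but below FOXO1 and BIRC3 in E1; the fitted sizes of FAS and PMAIP1 depend on the pseudocount because their DMSO libraries hold few reads.

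Over the 18 libraries, the tested genes whose log2 levels followed those of BCL2L1 most closely were KRT8 (Pearson r = 0.991) and its pseudogene KRT8P3 (0.989, uncertain because the copies share sequence). For PMAIP1 PLXNC1 had 0.988, and for BMF the closest were SCMH1 (0.967) and GFI1 (0.961). Among the 10 genes, MCL1 and PMAIP1 had r = 0.901 and BCL2L1 and BMF -0.893. These values describe 18 libraries that share a treatment split and come with no test.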

How the data were processed

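Poly(A) RNA libraries were made with a stranded kit and read as 50-base pairs, per the labels' protocols. The deposited table holds a signal for every gene symbol and library, namely reads per gene after division by that library's size factor. Trim Galore 0.4.4, STAR 2.6.0a, HTSeq, DESeq2 and the build hg19 are listed in the submitters' processing notes without role or order, and the annotation and strand setting of the counting are not given in the sources used here. Multiplying by each size factor gave whole reads for 100% of values within 1e-06, so depth could be recovered. Groups and replicate numbers came from the sample titles.

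Tests used limma 3.58.1 in R 4.3.3 (group means, eBayes with trend) on log2(value + 1) of genes with a mean of at least 10, with all 6 groups in 1 fit and adjustment over 16154 genes, for 11 comparisons. Log2 changes on this scale understate the change of low genes. The 10 genes and all lists were chosen with earlier results of these data known. From the 4 gene lists of apoptosis genes and transcription factors, genes called with tazemetostat in any line are named, at most 4 per list, the markers of other cells are described apart from that rule, and the 2 closest genes by Pearson r are given for members so called, except 1 that is not reported here. Alternatives were other pseudocounts (0.5 and 8), filters (none and a mean of 50), scalings, no fold limit, only the compared groups, a replicate block, each library left out, edgeR 4.0.16 and DESeq2 1.42.0 on recovered reads, and another length. The test was tried on simulated counts first. Same-numbered libraries of F2 and WT with DMSO deviated together in all 3 pairs (r of 0.108 to 0.375). In no other comparison did every pair exceed 0.1. Differently numbered libraries were not compared, so these values cannot show whether the numbers pair samples, and the main fit used no pairing. Exon lengths and overlaps came from GENCODE release 29 by symbol, on another build than hg19, and promoter sequences from RefSeq. MCL1 had no promoter entry. The labels call the libraries biological replicates without saying how the cultures were kept apart, so p-values measure the spread between these libraries, which may in part be technical. An exact permutation test of 3 against 3 libraries cannot go below 0.1 and was not used.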

Additional observations from a re-analysis of the deposited data

Results flagged for a closer look

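Between lines, the response to tazemetostat differed by the interaction contrast in limma (adjusted p under 0.05, difference of at least 1 in log2) for the following genes. For PMAIP1 the response in E1 minus that in WT was -3.23, and minus that in F2 -3.95. It was higher with the drug in 3 of 3 libraries of every line. Both differences rest on DMSO libraries with 0 or 1 read and were not past the threshold in edgeR or DESeq2.

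BIRC5 fell less in the clones than in WT, by 1.20 for E1 and 1.26 for F2. ENDOG gave -1.16 for E1 minus WT. CASP10 gave -1.18 for E1 minus WT and -1.48 for E1 minus F2, where its level without the drug was 181 normalized counts in E1, 12.0 in WT and 5.05 in F2. Only through its E1 libraries did CASP10 reach the filter on low values. TP73 gave 1.10 for E1 minus WT and 1.37 for F2 minus WT.

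FOXO1 rose more in the clones than in WT, by 1.49 for E1 and 1.05 for F2, and JUN rose less, at -1.27 for E1 and -1.23 for F2. FAS gave -1.68 for E1 minus F2, and that value turned sign with another pseudocount.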

How the results depend on the processing

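Without the fold limit, the counts of the 10 genes past the threshold were 7 for WT, 6 for E1 and 7 for F2 with tazemetostat, 2 and 3 for E1 and F2 against WT with DMSO, 8 and 8 with tazemetostat, 5 for E1 against F2, and 6, 2 and 4 for the response differences E1 minus WT, F2 minus WT and E1 minus F2. Of the 58 gene and comparison pairs so counted, 44 kept an adjusted p under 0.05 in every alternative and 14 did not in some. A mean of at least 50 leaves PMAIP1 untested and took the calls over all comparisons from 14 to 7: from 3 to 2 in WT and in F2 and to 1 in E1 with tazemetostat, 0 for E1 and 1 for F2 against WT with tazemetostat, and 0 for the response of E1 against WT and 0 against F2. edgeR and DESeq2 gave 0 and 0 calls for E1 minus WT, and 0 and 0 for E1 minus F2. A pseudocount of 8 gave 1 call in E1, and leaving out any E1 library gave 2, the scattered DMSO libraries included. For F2 against WT with tazemetostat it gave 1, as did a pseudocount of 0.5 (1) and no filter (1), and leaving out a library gave 1 to 2. With another pseudocount, 8, the FAS response in E1 minus that in F2 was 0.14, and the cause was not tested. Of the other single-gene values, 2683 stayed on the same side of the call threshold (adjusted p and fold together) and 50 fell under it; changes near 0 that passed in neither setting could change sign, and some crossed an adjusted p of 0.05 alone, as BCL2 did with tazemetostat in WT and F2. The replicate block left every count as it was, with 3, 2 and 3 calls with tazemetostat and 14 over all comparisons. Scaling to the same total moved the median of all genes from 0.03 to -0.13 with tazemetostat in WT, from -0.00 to 0.14 for F2 against WT with tazemetostat and from 0.01 to 0.13 for the response of F2 minus WT. Depth limits PMAIP1, which had at most 1 read without the drug.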

Other observations

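HRK, BIK and CASP10 were picked after their values were seen. HRK, which encodes another BH3-only protein, was the only one of 5 further BCL2 family genes tested that was called between lines. Of all tested genes, 7.56% were called between E1 and F2 with DMSO, and 5.81% for their response difference. Just under the fold limit with DMSO lay HRK in E1 against WT (-0.99, limma adjusted p = 6.6e-09) and BIK in E1 against F2 (0.97, limma adjusted p = 3.2e-04). With DMSO it had 632, 595 and 595 normalized counts in E1 against 1454, 1381 and 1240.2 in F2, a log2 difference of -1.16 ± 0.07 (SE, limma adjusted p = 4.0e-10). With tazemetostat it rose in E1 (0.58, adjusted p = 1.7e-06) and fell in F2 (-0.48, adjusted p = 1.6e-05), a response difference of 1.06 (adjusted p = 6.0e-07). In WT it had 1182, 1282 and 1157 without and 1095, 1201 and 1081 with the drug, and these overlapped. CASP10 stood 35.9-fold higher in E1 than in F2 with DMSO (adjusted p = 9.4e-11), with 187.5, 172 and 184 against 6.15, 4.15 and 4.85 normalized counts. It reached the filter on low values only through its E1 libraries, where it is high.

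In untreated E1, BCL2L1, BAX, BAK1 and BBC3 were each highest in replicate 2 and lowest in replicate 3. BCL2, MCL1 and BMF were highest in replicate 3 and lowest in replicate 2.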
